A study of Mus musculus with 3 samples.

Results

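The 8 genes described here encode receptors and ligands through which blood vessels grow and mature, and they were chosen by name. Kdr, Flt1, Tek, Tie1 and Aplnr encode 5 receptors, and Angpt2, Vegfc and Apln encode 3 ligands. They are 8 of the 9781 gene rows used from 1 table of single cell RNA-seq values of the developing mouse prostate. The table covers the male urogenital sinus (UGS) at E18.5, which gives rise to the prostate, and P14 and P35 prostate. All 3 groups are labelled as normal tissue and each is 1 droplet library made after digestion with collagenase and TrypLE. The mice of the study were of mixed C57BL/6 and 129S1/SvImJ background, and the genotype and the number of animals pooled are not given in the sources used here for these 3 samples. The study traced cells with an Osr1-Cre-activated membrane GFP reporter, and the table holds a row for EGFP. For the droplet kit, the version in the labels is not that in the methods of the study.

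Vascular endothelial growth factors signal through receptor tyrosine kinases. KDR (VEGFR2) carries most of the growth and sprouting signal in endothelium, while FLT1 (VEGFR1), which is also made as a soluble form, binds VEGFA tightly and limits its access to KDR. VEGFC acts mainly through FLT4, the receptor of lymphatic vessels, and through KDR. TEK (TIE2) is the receptor of the angiopoietins, TIE1 is its partner, long known as an orphan receptor, and ANGPT2 is a ligand that modulates TEK signalling in a context-dependent way. APLN (apelin) is the peptide ligand of APLNR, a G protein-coupled receptor of endothelium, and is known from sprouting tip cells.

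The cells of the table carry 3 barcode endings, and no label ties an ending to a sample. The cell count that the study states for the UGS equals that of the first set below and its counts for the other samples equal no set, and since groups were taken from labels alone no set was assigned an age. The 3 groups of cells are therefore called barcode sets 1, 2 and 3, their values stand side by side, and ages are not compared. Sets 1, 2 and 3 held 766, 5350 and 8457 cells, of which 97 of set 3 with under 200 genes were dropped, with a median of 19357, 1738 and 1788 unique molecular identifiers (UMIs, counted transcript molecules) per cell, so set 1 was about an order of magnitude deeper per cell. Sets 2 and 3 shared 13 cell barcodes and sets 1 and 2 shared 1, and whether these are the same cells was not tested. With 1 library per group there is no replicate error and no test. A rate below is the UMIs of a gene summed over the cells of a class per 1000000 UMIs of all genes (CPM), and every interval is an exact interval of 95% that covers counting error only. Where no UMI was found, the limit given is the upper end of that interval, and in folds a class without a UMI was set to 3 UMIs.

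Cells were clustered without the 8 genes, without the other genes of their pathways, and the clusters were named from marker lists. The endothelium-like class held 38 of 766 cells in set 1 (4.96%), 95 of 5350 in set 2 (1.78%) and 197 of 8360 in set 3 (2.36%). All 12 endothelial markers with a row had a higher rate in this class than in the other cells in each set, and their summed rates were 5380, 4700 and 4770 CPM against 33.1, 35.8 and 30.6. Cdh5, the adhesion molecule of endothelial junctions, was found in 84.2%, 85.3% and 83.2% of these cells. The class also held RNA of other kinds of cell, and which set held most of it differed between the lists. Of the pericyte list 1, 9 and 9 of 10 markers were higher in endothelium-like than in other cells, with summed rates of 10.5, 239 and 317 CPM against 293, 60.8 and 94.3. The epithelium list of 12 summed to 38, 519 and 832 CPM against 2960, 2190 and 2690, and the fibroblast list of 11 to 365, 1700 and 1090 against 6880, 5330 and 3930. The smooth muscle list of 8 summed to 367, 4120 and 1390 CPM against 1040, 7350 and 4630, and the leukocyte list of 12, of which 8, 7 and 6 markers were at 0, to 526, 310 and 629 against 435, 84 and 339. The neuron or neuroendocrine list of 7 was higher in set 1 than in sets 2 and 3, with 457, 91.5 and 88.0 CPM against 621, 116 and 119, and Stmn2 made up 402 CPM of it in set 1, where 31.6% of the endothelium-like cells had a UMI of it. By single genes, the fibroblast gene Dcn stood at 0.95, 411 and 596 CPM, the epithelial gene Cldn4 at 4.75, 155 and 247, and Srgn, from the leukocyte list but also known from endothelium, at 500, 298 and 621. The erythroid gene Hbb-bs reached 3620 CPM in set 2, where 11.6% of the endothelium-like cells had a UMI of it. In set 1 it stood at 108 CPM and was found in 84.2% of these cells, and in set 3 it stood at 7.23 in 1.02%. The part of these transcripts in the results below was not tested.

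In the reference annotation (GRCm38.p6, the mm10 assembly to which the reads were aligned) the receptors lie on 3 chromosomes. Kdr spans chr5:75932827-75979072 and Flt1 spans chr5:147561604-147726438. Tek spans chr4:94739086-94874976, Tie1 spans chr4:118471191-118489849 and Aplnr spans chr2:85136360-85139923. Of the ligands, Angpt2 spans chr8:18690263-18741562, Vegfc spans chr8:54077532-54186454 and Apln spans chrX:48025146-48034853. The values are counts of 3′ tags, so rates are compared between cells for 1 gene and not between genes.

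Upstream sequence is shown for 3 genes, of which Tie1 and Apln had most of their UMIs in endothelium-like cells and Vegfc did not. RefSeq sequence of GRCm38.p6 was matched by symbol for 6 of the 8 genes (not Aplnr or Angpt2), and these 3 were taken because their gene record does not reach into the window. Each line gives the 250 bases before the start, 5′ to 3′ on the strand of the gene, at chr4:118489850-118490099 (minus strand) for Tie1, chrX:48034854-48035103 (minus strand) for Apln and chr8:54077282-54077531 (plus strand) for Vegfc. The capitals mark GGAA on either strand (TTCC on the other), the core of the motif bound by ETS factors, a family known for endothelial gene control.
Tie1: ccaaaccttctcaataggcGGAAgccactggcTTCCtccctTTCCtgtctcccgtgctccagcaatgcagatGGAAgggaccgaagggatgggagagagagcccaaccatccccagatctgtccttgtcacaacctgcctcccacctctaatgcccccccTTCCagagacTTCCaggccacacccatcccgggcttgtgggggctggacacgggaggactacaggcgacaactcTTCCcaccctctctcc
Apln: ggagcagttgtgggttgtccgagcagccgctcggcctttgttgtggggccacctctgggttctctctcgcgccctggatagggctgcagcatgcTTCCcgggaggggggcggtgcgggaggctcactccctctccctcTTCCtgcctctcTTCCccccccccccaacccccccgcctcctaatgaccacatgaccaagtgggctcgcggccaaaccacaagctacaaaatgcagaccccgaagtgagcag
Vegfc: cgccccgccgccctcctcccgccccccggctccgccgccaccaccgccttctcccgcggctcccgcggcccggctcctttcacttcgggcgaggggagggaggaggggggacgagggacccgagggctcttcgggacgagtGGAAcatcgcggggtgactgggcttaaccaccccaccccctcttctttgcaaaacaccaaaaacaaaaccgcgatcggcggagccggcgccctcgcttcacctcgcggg
Tie1 held 7 matches, Apln 3 and Vegfc 1. Kdr and Flt1 held 4 each and Tek held 2. Of all 32851 windows in the table, 93.4% held at least 1 match and the median window held 3, so the presence of the core was common to nearly all genes. The longer strings CCGGAA and CAGGAA, both of which contain GGAA, were also counted on both strands. CCGGAA was found in the Kdr window alone of the 6 and in 12% of all windows, and CAGGAA was found in those of Tek, Tie1 and Apln and in 25.7% of all windows. GATAA, the core bound by GATA factors, was in none of the 6 windows and in 22.6% of all. TATAAA was in that of Flt1 and in 12.4% of all windows. The windows of Kdr, Flt1 and Tek overlap their own gene records and may lie downstream of another start. These are matches of letters in a window, and binding was not measured.

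Across the classes, the receptors and Apln had their highest rate in endothelium-like cells in all 3 sets. In set 2 the intervals of Tek and Aplnr overlap that of the pericyte-like cells, and the interval of Apln overlaps those of the pericyte-like, leukocyte-like, neuron or neuroendocrine-like and glia-like cells, all without a UMI of the gene. Of the 8 genes, 7 had their highest rate in this class in set 1, and 8 did in sets 2 and 3, with Angpt2 as the exception in set 1. The first place of Vegfc overlaps the next class in each set and that of Angpt2 does in set 3, and in set 1 that of Vegfc rests on 1 cell, without which 6 genes had their highest rate in this class. Against all other kept cells, 6 of 8 genes were at least 4-fold higher in endothelium-like cells in set 1, 6 of 7 with at least 10 UMIs in set 2 (Apln had 9) and 7 of 8 in set 3. None was 4-fold lower, where 8.18%, 0.831% and 1.84% of all genes with at least 10 UMIs were, so a count of 0 among so few genes says little. After thinning to 900 UMIs a cell the count of set 1 was 2, of 3 genes with at least 10 UMIs. Of all genes with at least 10 UMIs, 4.13%, 4.23% and 5.40% were 4-fold higher in the 3 sets. The genes were listed for their known place in vessels, so these counts are a description of the list and not independent evidence. The median log2 ratio of the 8 genes, with Apln included in set 2, was 5.69, 6.02 and 6.21, against −0.061, 0.396 and 0.33 over all genes tested. The cells that stood for background were the leukocyte-like cells, with a median of 10313, 2027 and 2003 UMIs against 20338, 3296 and 3142 in endothelium-like cells. A rate or share is called separated from this background below where the intervals do not overlap. No ratio to leukocyte-like cells was computed, and overlap does not show that rates are equal.

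**Figure D1:**
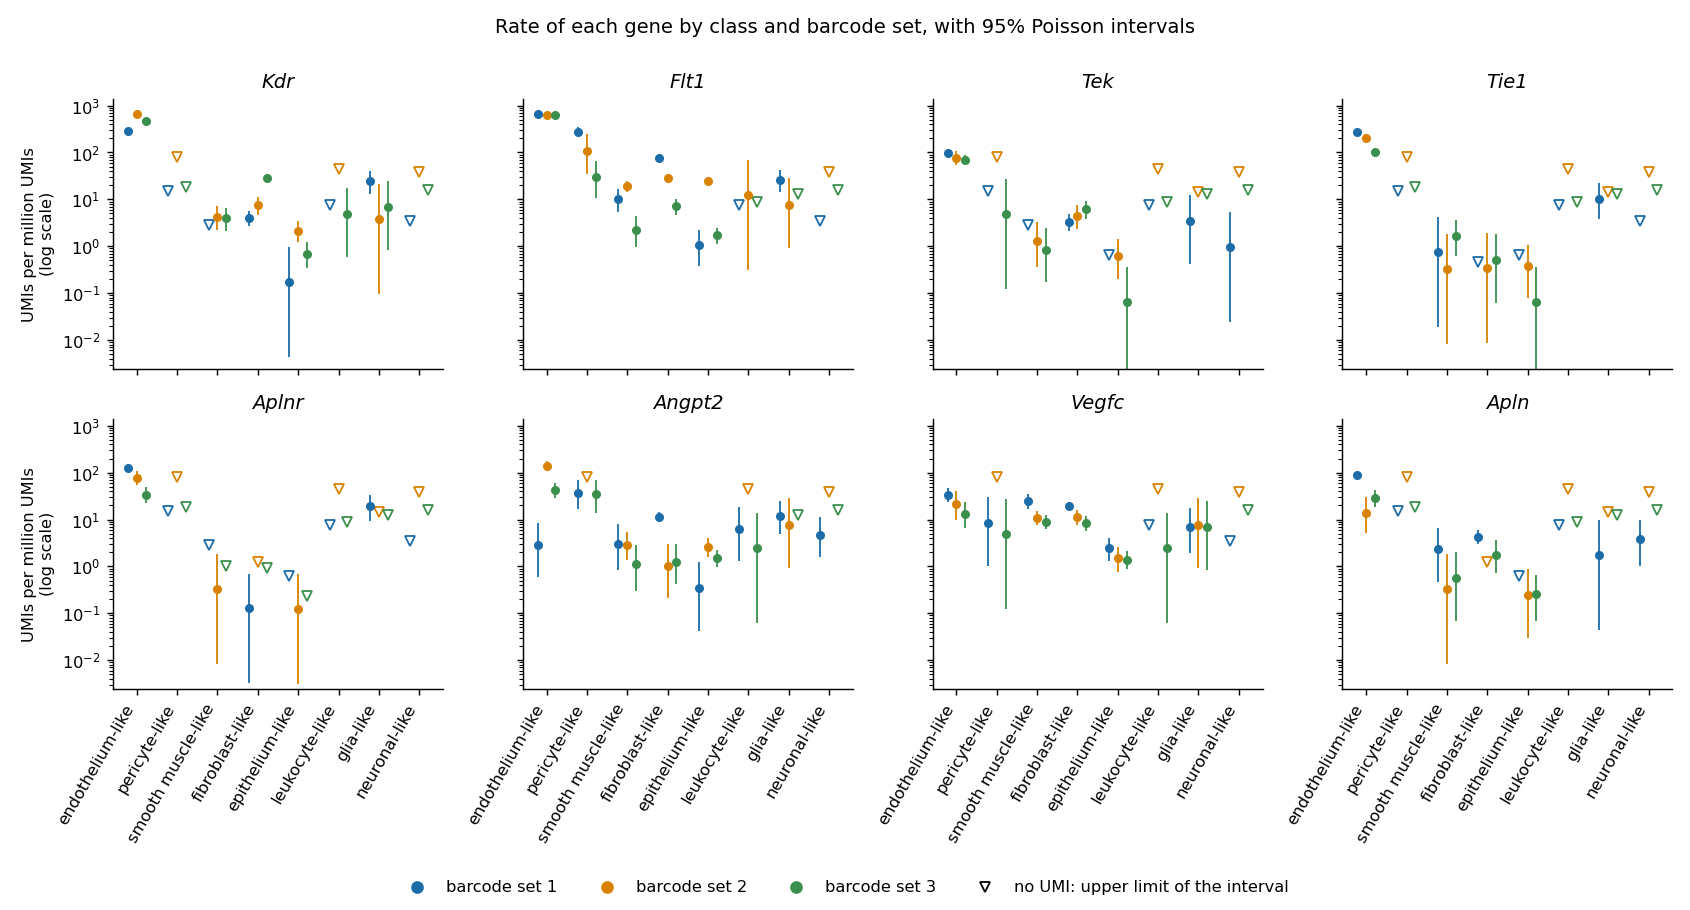
Rate of each of the 8 genes (CPM, log scale) in 8 named classes and 3 barcode sets, with exact 95% Poisson intervals, and with open triangles at the upper limit where no UMI was found (neuronal-like stands for the neuron or neuroendocrine class). Endothelium-like cells stand at the top for the receptors, from 33.7 CPM (Aplnr, set 3) to 667 (Kdr, set 2), while for Vegfc the endothelium-like, fibroblast-like and smooth muscle-like classes lie close together.

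Kdr, the main signalling receptor for VEGFA, was found in endothelium-like cells at 281 CPM in set 1 (interval 250 to 315, 296 UMIs), 667 in set 2 (591 to 749, 284 UMIs) and 480 in set 3 (434 to 529, 398 UMIs). The interval of the class did not overlap that of any other class in any set. In set 1, 78.9% of endothelium-like cells had a Kdr UMI, in set 2 71.6% and in set 3 67.0%. Leukocyte-like cells with a Kdr UMI were 0 of 38, 0 of 25 and 1 of 177, where 0 cells allows a share of cells with a UMI of up to 9.25% in set 1 and 13.7% in set 2. At an equal depth of 900 UMIs a cell, 37, 88 and 180 endothelium-like cells were deep enough to be thinned to it. Their shares were 21.6% (9.83% to 38.2%), 45.5% (34.8% to 56.4%) and 37.2% (30.1% to 44.7%). There set 1 had the lowest share and not the highest, though its interval overlaps both others. The rate was 116-fold, 188-fold and 85.5-fold that of all other kept cells (log2 ratios 6.86, 7.55 and 6.42). Endothelium-like cells held 86.3%, 83.8% and 72.8% of all Kdr UMIs while holding 5.13%, 2.67% and 3.03% of UMIs of any gene.

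The class with the next highest Kdr rate was not separated from all the others. In set 1 it was the glia-like class at 24.3 CPM (13.3 to 40.7), where 14 UMIs came from 3 of 21 cells and 2 of these 3 cells had UMIs of at least 2 endothelial markers. In sets 2 and 3 it was the fibroblast-like class, at 7.54 (4.73 to 11.4) and 28.5 (23.5 to 34.3), against 4.05 (2.77 to 5.72) in set 1. In set 1 the glia-like interval overlaps that of the pericyte-like cells (0 to 15.3). The fibroblast-like interval overlaps those of all classes below it but the epithelium-like one in set 2, among them smooth muscle-like cells (2.25 to 7.22), and in set 3 that of the glia-like cells (0.837 to 25.0). No Kdr UMI was found in pericyte-like cells of any set. With those cells set to 3 UMIs, the endothelium-like rate was 22.6-fold, 10.2-fold and 32.5-fold higher. The intervals of these log2 ratios start at 2.94, 1.79 and 3.46. Epithelium-like cells stood at 0.174, 2.12 and 0.698 CPM.

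Flt1, the receptor that limits VEGF access to KDR, had nearly the same rate in endothelium-like cells of the 3 sets, at 655 (607 to 706, 690 UMIs), 646 (572 to 727, 275 UMIs) and 645 (591 to 702, 535 UMIs) CPM. Its UMIs were found in 78.9%, 78.9% and 76.6% of these cells, and in 29.7%, 43.2% and 50% after thinning. In leukocyte-like cells it was found in 0 of 38, 1 of 25 and 0 of 177. What differed was the level outside endothelium, which was 36.9, 23.9 and 2.90 CPM over all other kept cells. The ratio to those cells was therefore 17.8-fold, 27.0-fold and 222-fold, and endothelium-like cells held 49.0%, 42.6% and 87.4% of all Flt1 UMIs in sets 1, 2 and 3. Without the 1 endothelium-like cell richest in Flt1, which held 107 UMIs in set 1, the rate in set 1 was 606 CPM.

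Tek, the receptor of the angiopoietins, stood at 97.8 (79.9 to 119, 103 UMIs), 77.5 (53.3 to 109, 33 UMIs) and 69.9 (53.1 to 90.3, 58 UMIs) CPM in endothelium-like cells. The 3 intervals overlap. The ratio to all other kept cells was 65.6-fold, 52.2-fold and 64.0-fold, and the class held 78.0%, 58.9% and 66.7% of its UMIs. Tek was found in 57.9%, 26.3% and 20.3% of endothelium-like cells, which thinning brought to 5.41%, 9.09% and 5.0%, and in 0 of 38, 0 of 25 and 0 of 177 leukocyte-like cells. Fibroblast-like cells came next among the large classes, at 3.29, 4.46 and 6.10 CPM. Pericyte-like cells had 0, 0 and 1 UMI.

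Tie1, the partner of TEK, stood at 272 (241 to 305, 286 UMIs), 204 (164 to 252, 87 UMIs) and 101 (80.7 to 125, 84 UMIs) CPM. Endothelium-like cells held 97.6%, 93.5% and 89.4% of its UMIs. Outside them 7, 6 and 10 UMIs were left in all kept cells of sets 1, 2 and 3, and the ratio was 755-fold, 528-fold and 269-fold (log2 ratios 9.56, 9.04 and 8.07). These ratios rest on few UMIs and moved with the processing. In set 1 the log2 ratio was 5.70 after thinning, with the other cells set to 3 UMIs, and 10.9 as a mean over cells. In set 2 it was 6.64 with cells classed one by one and up to 9.83, and in set 3 it was 7.47 to 8.38. In set 1, 6 of these 7 UMIs lay in 2 glia-like cells, both with UMIs of at least 2 endothelial markers. No UMI of Tie1 was found in the 407 fibroblast-like cells of set 1. With those cells set to 3 UMIs, the endothelium-like rate was 715-fold higher (interval of the log2 ratio 7.92 to 11.8). Tie1 was found in 73.7%, 58.9% and 26.9% of endothelium-like cells, in 16.2%, 17.0% and 8.89% after thinning, and in no leukocyte-like cell.

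Aplnr, the apelin receptor, had a like distribution at lower counts. It stood at 128 (108 to 152, 135 UMIs), 77.5 (53.3 to 109, 33 UMIs) and 33.7 (22.4 to 48.8, 28 UMIs) CPM in endothelium-like cells. The class held 91.8%, 94.3% and 96.6% of its UMIs. All other kept cells held 12 UMIs in set 1, of which 11 lay in 2 glia-like cells with UMIs of at least 2 endothelial markers, 2 UMIs in set 2 and 1 in set 3. The ratio was 208-fold in set 1, 601-fold in set 2 (interval 154 to 5170) and 896-fold in set 3 (148 to 36600). It was found in 60.5%, 24.2% and 9.14% of endothelium-like cells, in 13.5%, 5.68% and 0.556% after thinning, and in no leukocyte-like cell.

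**Figure D2:**
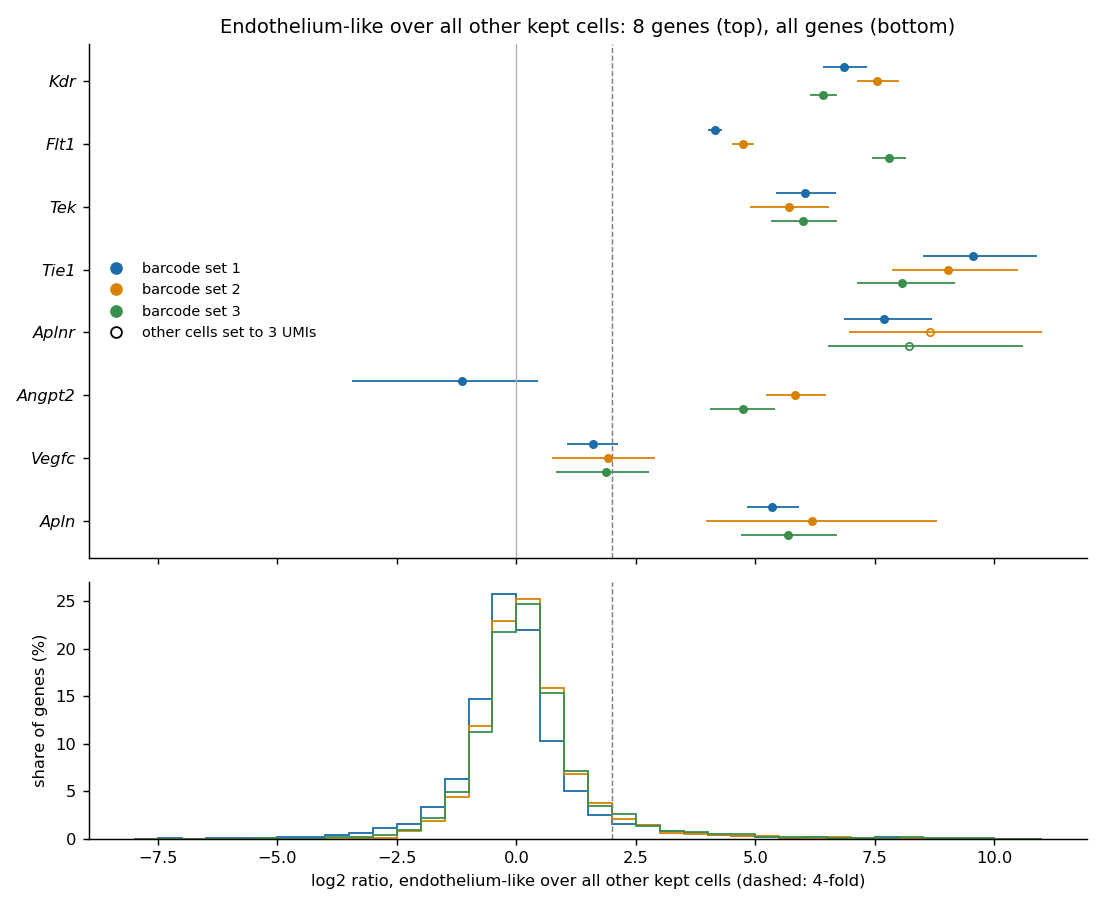
Top, log2 ratio of the rate in endothelium-like cells over that in all other kept cells for each gene and barcode set, with exact 95% intervals (dashed line, 4-fold; open circles, other cells set to 3 UMIs). Bottom, the same ratio as a histogram over the genes with at least 10 UMIs in the set and at least 3 in both groups of cells (5780, 5017 and 5818 genes). Tie1 and Aplnr lie farthest right, Vegfc lies just below the 4-fold line in each set, and Angpt2 of set 1 lies left of 0 with an interval from −3.44 to 0.444.

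The ligands were less uniform than the receptors. Angpt2, the modulating ligand of TEK, stood at 2.85 CPM in endothelium-like cells of set 1 (0.588 to 8.33, 3 UMIs in 3 of 38 cells), 141 in set 2 (107 to 181, 60 UMIs in 37 of 95 cells) and 42.2 in set 3 (29.4 to 58.7, 35 UMIs in 28 of 197 cells). These 3 intervals do not overlap, though set 1 had the deepest cells. In set 1 the class ranked 7 of 8 named classes for Angpt2, with an interval that overlaps those of all other named classes but the pericyte-like and fibroblast-like cells. Pericyte-like cells stood at 37.3 (17.1 to 70.8, 9 UMIs in 5 of 10 cells), glia-like cells at 12.1 (4.88 to 25.0) and fibroblast-like cells at 11.6 (9.39 to 14.3, 92 UMIs in 46 of 407 cells). The fibroblast-like cells of set 1 held most of the Angpt2 UMIs, with the highest rate in the 34 cells of cluster 1 at 41.3 CPM (23.1 to 68.2, 15 UMIs in 4 cells). Leukocyte-like cells of set 1 stood at 6.26 CPM (1.29 to 18.3, 3 UMIs in 1 cell). This interval overlaps those of the endothelium-like, pericyte-like, glia-like and fibroblast-like classes, so by the intervals none of these 4 rates was separated from background. The overlap with the pericyte-like interval is narrow, from 17.1 to 18.3 CPM. In set 2 fibroblast-like cells held 3 UMIs (1.03 CPM) and in set 3 they held 5 (1.27 CPM).

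In set 3 the endothelium-like and pericyte-like rates of Angpt2, 42.2 and 34.4 (13.8 to 71.0, 7 UMIs in 7 of 130 cells), overlap, with a log2 ratio of 0.29 (−0.90 to 1.71). Both lie above the fibroblast-like rate, the log2 ratio being 5.05 (3.69 to 6.76) and 4.76 (2.89 to 6.76). In set 2 no Angpt2 UMI was found in 29 pericyte-like cells, whose 45869 UMIs allow a rate of up to 80.4 CPM. Of leukocyte-like cells, 1 of 38, 0 of 25 and 1 of 177 had an Angpt2 UMI, and after thinning none did. Against all other kept cells the log2 ratio of the endothelium-like rate was −1.14 (−3.44 to 0.444), 5.84 (5.23 to 6.47) and 4.74 (4.05 to 5.42).

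Vegfc, the ligand of lymphatic growth, was spread over endothelium and stroma. In endothelium-like cells it stood at 33.2 (23.2 to 46.2, 35 UMIs), 21.1 (9.66 to 40.1, 9 UMIs) and 13.3 (6.62 to 23.7, 11 UMIs) CPM. The rate in fibroblast-like cells was 19.9 (16.9 to 23.2), 11.3 (7.79 to 15.9) and 8.39 (5.78 to 11.8), and in smooth muscle-like cells 24.5 (16.8 to 34.6), 11 (7.65 to 15.4) and 9.0 (6.15 to 12.7). In sets 2 and 3 the endothelium-like interval overlaps both. In set 1 a single endothelium-like cell held 23 of the 35 UMIs, and without it the rate was 12 CPM. The log2 ratio to fibroblast-like cells in set 1 was 0.74 (0.17 to 1.28) with that cell and −0.73 (−1.72 to 0.11) without it. The log2 ratio to all other kept cells was 1.61 (1.05 to 2.13) with it and 0.13 without it. Epithelium-like cells had the lowest rates of the large classes, at 2.43, 1.49 and 1.40 CPM. Endothelium-like cells held 14.2%, 9.38% and 10.3% of the Vegfc UMIs. A Vegfc UMI was found in 21.1%, 8.42% and 5.08% of them, against 23.3%, 1.78% and 1.23% of fibroblast-like cells, whose median depth was 15977, 1288.5 and 1335 UMIs. After thinning the shares were 5.41%, 2.27% and 1.67% of endothelium-like cells and 1.98%, 1.19% and 0.783% of fibroblast-like cells. No leukocyte-like cell of sets 1 and 2 and 1 of 177 in set 3 had a Vegfc UMI, and in sets 2 and 3 the interval of the leukocyte-like rate overlaps those of endothelium and stroma.

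Apln, the apelin peptide, stood at 90.2 (73.0 to 110, 95 UMIs), 14.1 (5.17 to 30.7, 6 UMIs) and 28.9 (24 UMIs, upper limit 43.0) CPM in endothelium-like cells. These cells held 68.8%, 66.7% and 61.5% of its UMIs, and the ratio to all other kept cells was 40.8-fold, 72.8-fold and 51.2-fold. It was found in 52.6%, 4.21% and 7.11% of endothelium-like cells, in 10.8%, 0% and 2.22% of those thinned (0 of 88 in set 2), and in no leukocyte-like cell. The interval of set 2 overlaps the leukocyte-like one (0 to 45.0), so the rate of set 2 was not separated from background. By rate those of sets 1 and 3 were (limits 7.69 and 8.93), while at equal depth the intervals of their shares overlap the leukocyte-like ones. The rate of set 1 did not overlap that of sets 2 and 3. Outside endothelium most Apln UMIs of set 1 lay in the fibroblast-like cluster 6, with 32 UMIs in 18 of 220 cells (8.03 CPM, 5.49 to 11.3), and 1 of these 18 cells had UMIs of at least 2 endothelial markers. The interval overlaps the leukocyte-like one of set 1 (0 to 7.69), so this rate was not separated from background. This cluster was led by EGFP, Tmem119 and Sfrp2. The pericyte-like class held no Apln UMI.

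Pericytes wrap small vessels, and in the pericyte-like class Flt1 was the receptor with more than 1 UMI. The class, with Rgs5, Cox4i2 and Ndufa4l2 among its 10 leading genes, carried 8 pericyte markers and also 7 each of the fibroblast and smooth muscle markers. Pericyte-like cells stood second for Flt1 in each set, at 274 (212 to 348, 66 UMIs in 5 of 10 cells), 109 (35.4 to 254, 5 UMIs in 4 of 29 cells) and 29.5 (10.8 to 64.3, 6 UMIs in 5 of 130 cells) CPM. Each was above the fibroblast-like rate, the log2 ratio being 1.81 (1.42 to 2.18), 1.96 (0.30 to 3.24) and 2.05 (0.49 to 3.35). In set 1, 26 of the 66 UMIs lay in 1 cell, and 2 of the 5 cells with Flt1 had UMIs of at least 2 endothelial markers, as did 3 of the 5 without Flt1. In set 2 none of the 4 cells did, and in set 3 the number was 2 of 5. Kdr, Tie1, Aplnr and Apln had no UMI in pericyte-like cells of any set. Because the class held 45869 UMIs in set 2, a count of 0 there allows up to 80.4 CPM, above the endothelium-like rates of Tek, Aplnr and Apln, so for these genes a difference was not detectable in set 2. With the class set to 3 UMIs, Kdr and Tie1 stood 10.2-fold and 3.12-fold higher in endothelium-like cells of that set. The intervals of these log2 ratios were 1.79 to 5.64 and 0.0481 to 3.95.

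Within the fibroblast-like class, Flt1 was concentrated in cluster 2, which was led by the matrix and fibroblast genes Dpt, Ptx3 and Lum. In set 1 it held 581 of the 615 fibroblast-like Flt1 UMIs, at 164 CPM (151 to 177), in 62 of 153 cells. Of those 62 cells 8 had UMIs of at least 2 endothelial markers, as did 6 of the 91 cells without Flt1. The richest cell held 53 UMIs. Cluster 2 stood above the other fibroblast-like clusters in each set, the log2 ratio being 4.39 (3.89 to 4.93), 1.21 (0.51 to 1.95) and 1.66 (0.41 to 3.05). In set 3, 1 cell held 7 of the 20 UMIs of cluster 2, against 8 UMIs in the other fibroblast-like clusters. The ratio without that cell was not computed. Its rates in sets 2 and 3 were 39.3 (29.8 to 50.9) and 11.5 (7.02 to 17.8) CPM. Over the whole fibroblast-like class 20.4%, 4.01% and 0.672% of cells had a Flt1 UMI, and 3.95%, 2.45% and 0.652% did after thinning. The rate over the class was 77.8 (71.8 to 84.2), 28.1 (22.4 to 34.9) and 7.12 (4.73 to 10.3) CPM. Leukocyte-like cells held 0, 1 and 0 Flt1 UMIs, and the counts of 0 allow up to 7.69 CPM in set 1 and 8.93 in set 3. The rate in fibroblast-like cells thus lies above that background in set 1, and in sets 2 and 3 the counts do not separate them. At equal depth set 1 was not separated either. The share was 3.95% (2.27% to 6.34%) there, against 0 of 38 leukocyte-like cells (up to 9.25%).

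Tek was likewise placed in cluster 2, at 6.76, 6.21 and 12.6 CPM (24, 9 and 22 UMIs). None of the 16, 9 and 19 cells with a Tek UMI there had UMIs of at least 2 endothelial markers. Leukocyte-like cells held no Tek UMI, which allows up to 7.69, 45.0 and 8.93 CPM. The intervals of cluster 2 (4.33 to 10.1, 2.84 to 11.8 and 7.92 to 19.1) overlap these limits. By the intervals its Tek rate was therefore not separated from background in any set, with a narrow overlap in set 3 (7.92 to 8.93). Against the other fibroblast-like clusters, which held 2, 4 and 2 UMIs, the ratio was 14.7-fold (3.65 to 128) in set 1 and 13.9-fold (3.41 to 122) in set 3, while the log2 ratio in set 2 was 1.19 (−0.65 to 3.34). Kdr in cluster 2 differed in direction between the sets, with log2 ratios to the other fibroblast-like clusters of −1.54 (−3.00 to −0.29), 0.55 (−0.79 to 1.95) and 1.59 (0.99 to 2.22). In set 3 its 79 UMIs (45.4 CPM) came from 66 of 1114 cells, of which 1 had UMIs of at least 2 endothelial markers. After thinning, 2.22% of the fibroblast-like cells of set 3 had a Kdr UMI, against 1 of 168 leukocyte-like cells (0.595%), and the intervals of these shares, 1.66% to 2.91% and 0.0151% to 3.27%, overlap. The intervals of the rates over all cells, 23.5 to 34.3 and 0.586 to 17.5 CPM, do not, so Kdr there lay above background by rate and was not separated from it at equal depth. Vegfc did not follow the cluster, the log2 ratio being 0.05 (−0.42 to 0.52), 0.10 (−0.97 to 1.19) and −0.11 (−1.22 to 0.96).

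**Figure D3:**
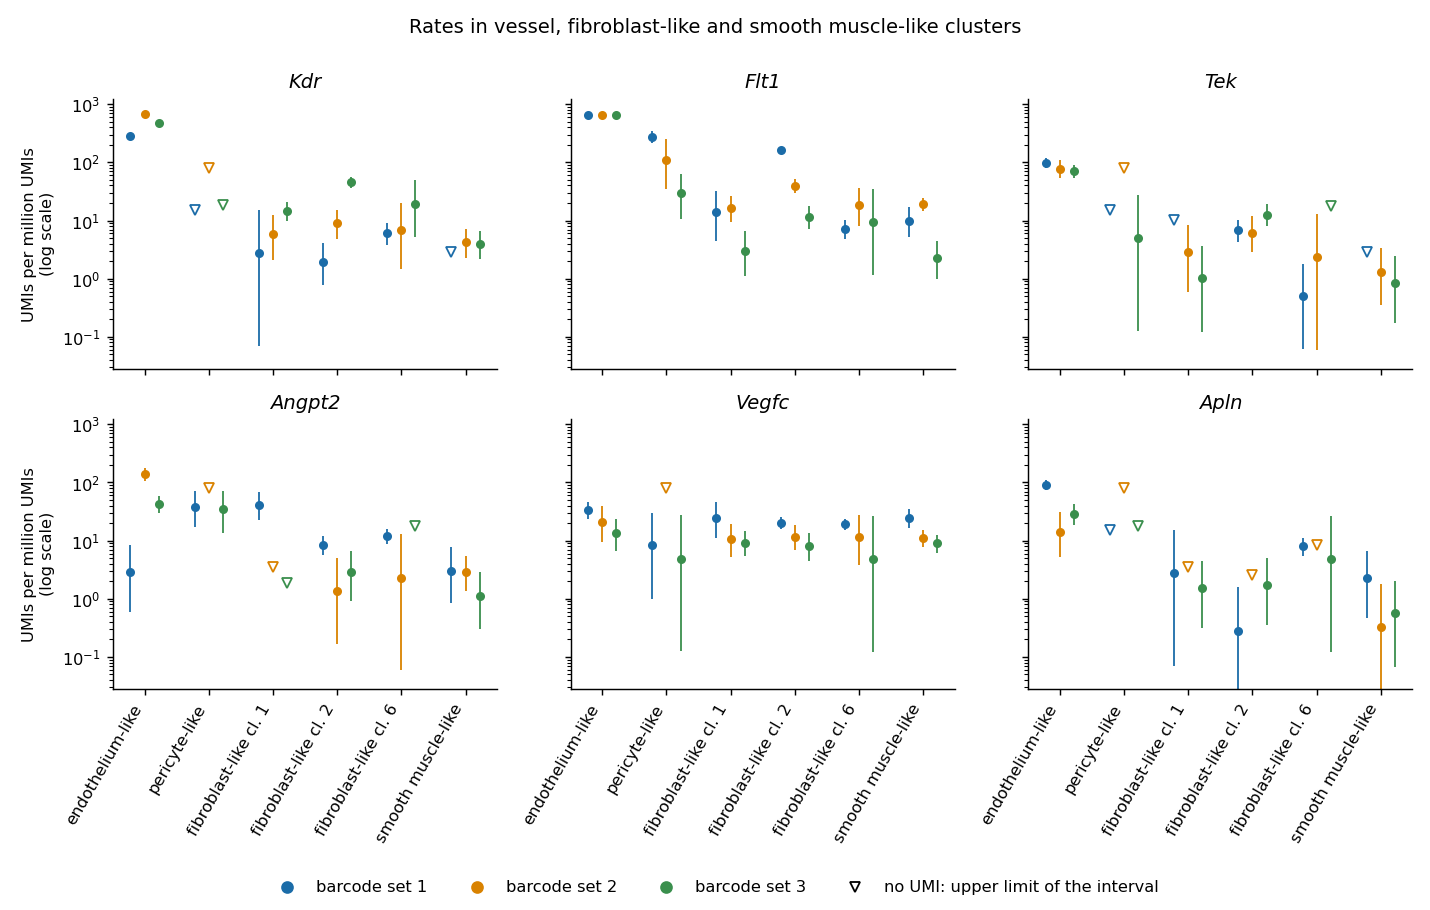
Rates of 6 genes (CPM, log scale, exact 95% Poisson intervals) in the endothelium-like, pericyte-like, smooth muscle-like and 3 fibroblast-like clusters (cl.) of each barcode set, with open triangles at the upper limit where no UMI was found. Flt1 of set 1 stands higher in fibroblast-like cluster 2 (164 CPM) than in clusters 1 and 6, Angpt2 of set 1 is highest in fibroblast-like cluster 1 and pericyte-like cells (41.3 and 37.3), and the Vegfc intervals of the 3 fibroblast-like clusters overlap in each set.

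In epithelium-like cells the receptors were scarce but for Flt1 in set 2, where 199 UMIs in 147 of 1401 cells gave 24.8 CPM (21.5 to 28.5). Of these, 132 UMIs lay in 93 of 547 cells of cluster 5, led by Lamb3, Sfn and Lgals7, at 36.5 CPM, and 2 of the 93 cells had UMIs of at least 2 endothelial markers. The same class stood at 1.04 (0.382 to 2.27) CPM in set 1 and 1.71 (1.13 to 2.49) in set 3. Smooth muscle-like cells of set 2 stood at 19.2 (14.6 to 24.7), and the leukocyte-like cells at 12.2 (0.309 to 68.0) from 1 UMI, so Flt1 was found at low rates in every large class of set 2. After thinning to equal depth 1.51% of epithelium-like cells of set 2 had a Flt1 UMI, against 1 of 23 leukocyte-like cells (4.35%). The interval of the pericyte-like rate of set 2, 35.4 to 254, also overlaps the leukocyte-like one. The Flt1 counts of set 2 outside endothelium-like cells are therefore not shown to lie above the leukocyte-like background, which rests on 1 UMI. Free RNA in the droplets was not measured.

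The endothelium-like cells were divided into 4 sub-clusters, again without the 8 genes. They are described by their leading genes and are not given type names. E0 (139 cells) was led by Ackr1 and Selp, 2 genes known from venules, and was shallow, with a median of 2182, 1229 and 1498 UMIs. E1 (117 cells) had Gja4 and Hey1, known from arteries, and Ccl21a, Mmrn1 and Reln, known from lymphatics, among its 10 leading genes. By the full lists, E1 had 4 of 6 arterial, 3 of 4 venous and 1 of 6 lymphatic markers in at least 10% of its cells. E0 had 2 of 6, 2 of 4 and 0 of 6, so the lists do not sort E0 and E1 by kind of vessel. E2 (48 cells) was led by epithelial genes, with Cldn4 in 93.8% and Perp in 89.6% of its cells, and the fibroblast gene Dcn in 91.7%. E3 (26 cells) was led by Ube2c and Cenpf, and Mki67, a proliferation gene, was in 80.8%. Only 2, 2 and 8 endothelium-like cells of the 3 sets had UMIs of at least 2 lymphatic markers, so lymphatic endothelium could not be described apart.

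Kdr and Flt1 were present in every sub-cluster of every set, and E2 had lower rates of both than E1 in sets 2 and 3. Kdr stood at 224 (148 to 326) and 203 (153 to 264) CPM in E2, against 942 (803 to 1100) and 617 (537 to 706) in E1. Flt1 stood at 307 (216 to 424) and 247 (192 to 314) in E2, against 862 (730 to 1010) and 825 (731 to 927) in E1. E2 had 11 of 12 epithelial markers in at least 10% of its cells, against 1 in E1 and 5 in E3. Fibroblast markers were as many in E1 as in E2 (8 of 11), with Dcn in 26.5% and 91.7% of cells. The part of this RNA in the lower rates was not tested. In set 1 E2 was 1 cell.

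The cells of E3, led by genes of mitosis, also carried the receptors. In set 1 Kdr was 314 CPM in E3 (266 to 368) and in E1 (262 to 373), and Tie1 was 245 (203 to 293) in E3 and 314 (262 to 373) in E1. Flt1 was higher in E3 than in E1 in set 1, at 781 (705 to 863) and 565 (495 to 643), and lower in set 3, at 442 (291 to 643) and 825 (731 to 927), so no one order of these sub-clusters held for Flt1. Apln in set 1 was 102 CPM in E1 and in E3 and 31.4 (3.80 to 113) in E0, whose interval overlaps both. Angpt2 in set 2 was 223 (122 to 374) in E0, 137 (87.7 to 204) in E1, 83.1 (39.8 to 153) in E2 and 178 (91.8 to 310) in E3, all overlapping. In set 3 it was 73.1 (47.3 to 108) in E1 and 11.1 (2.28 to 32.4) in E2. Aplnr in set 3 was 147 (67.3 to 279) in E3, from 9 UMIs in 2 cells, and 32.2 (16.1 to 57.6) in E1.

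**Figure D4:**
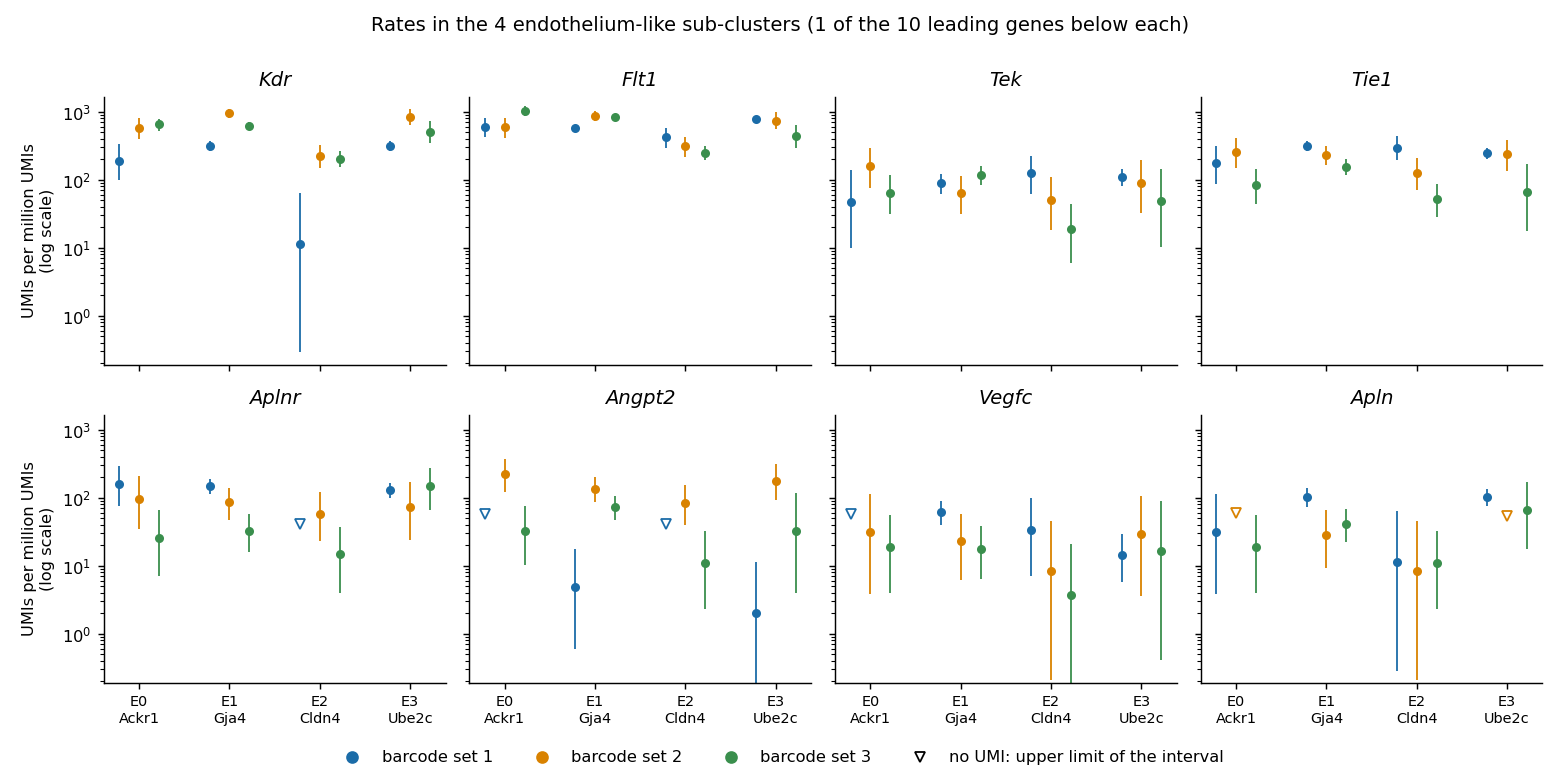
Rates of the 8 genes (CPM, log scale, exact 95% Poisson intervals) in the 4 endothelium-like sub-clusters of each barcode set, with 1 of the 10 leading genes below each and open triangles at the upper limit where no UMI was found. Kdr and Flt1 of sets 2 and 3 are lowest in E2, and E2 of set 1 is a single cell.

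Cells often held several of the 8 genes. At least 1 was found in 34 of 38, 91 of 95 and 177 of 197 endothelium-like cells, with a median of 5, 3 and 2 genes per cell. At least 2 of the 5 receptors were found in 31, 75 and 135 cells and all 5 in 15, 4 and 3. These counts were not recomputed at equal depth, and the median depth of these cells differed between the sets, as given above. Kdr and Flt1, the pair of VEGF receptors, were found together in 29, 58 and 111 cells, which is 96.7%, 85.3% and 84.1% of the cells with Kdr. Among cells without Kdr, Flt1 was found in 12.5%, 63.0% and 61.5%, and those cells were shallower (median 1675.5, 1537 and 1658 UMIs against 23281.5, 4068.5 and 3704).

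Tek and its partner Tie1 were found together in 20, 15 and 17 cells, of the 22, 25 and 40 cells with Tek. The ligand Angpt2 and its receptor Tek were together in 3 of the 3, 10 of the 37 and 11 of the 28 cells with Angpt2. The ligand Apln and its receptor Aplnr were together in 16 of the 20, 1 of the 4 and 3 of the 14 cells with Apln. In each of these pairs the cells with the first gene were deeper in every set, so the pairs are given as counts alone.

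For each gene, the 3 genes with the most alike pattern were sought among 7876 genes over 21 combinations of class and barcode set. The measure was Pearson's r of log2(rate + 5 CPM), and the points share libraries and depth, so r is a description. Kdr was most like Cdh5 (0.966), Myct1 (0.952) and Sox18 (0.95), of which Cdh5 and Sox18 are markers used to name the class. Tek was most like Plvap (0.970), Sox18 (0.968) and Clec1a (0.966), and Tie1 was most like Sox17 (0.989), Sox18 (0.985) and Myct1 (0.984). Aplnr was most like Tie1 (0.983), Sox17 (0.965) and Cdh5 (0.964). These 4 receptors thus had patterns close to those of the endothelial markers.

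Flt1 had less close neighbours, Chst1 (0.897), Fzd4 (0.879) and Asb4 (0.872), none of them on the marker lists. Apln was most like Ccm2l (0.962), Klhl4 (0.954) and Nova2 (0.947). Angpt2 was most like Chst15 (0.820), Nmb (0.766) and Gm10762 (0.757), and Vegfc was most like Plcb1 (0.847), Dkk2 (0.832) and Rilpl1 (0.825). The 2 ligands with the widest spread over classes thus had the lowest r.

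Of the other genes of these pathways, 63 were listed, Cdh5 among them, and 35 apart from Cdh5 had a row. In set 1, 8 of 34 with at least 10 UMIs were at least 4-fold higher in endothelium-like cells, in set 2 8 of 31 and in set 3 12 of 32, where the shares of all genes were 4.13%, 4.23% and 5.40%. In the other direction 1 (Cxcl12) was 4-fold lower in set 1 and 0 were in sets 2 and 3, and the shares of all genes at least 4-fold lower were 8.18%, 0.831% and 1.84%. The list was made with earlier results of these data known, so its counts describe it and no more. Over the listed genes with at least 3 UMIs in both groups of cells the median log2 ratio was 0.89, 1.16 and 1.67, against −0.09, 0.15 and 0.16 over all such genes.

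The 6 pathway genes at least 4-fold higher in all 3 sets were Dll4, Efna1, Fgd5, Lmo2, Nos3 and Plxnd1. Dll4, the Notch ligand of tip cells and arteries, had log2 ratios of 5.74, 6.34 and 7.28. Nos3, the nitric oxide synthase of endothelium, had 6.19, 5.08 and 7.0, and Fgd5, a regulator of CDC42 in endothelium, had 4.76, 4.35 and 5.35. Plxnd1, a semaphorin receptor of vessels, had 5.49, 5.39 and 4.87, and Lmo2, a transcriptional cofactor of endothelium and blood, had 6.08, 3.74 and 4.19. Efna1, an ephrin ligand, had 2.48, 3.51 and 2.75. Cxcr4, Hey1 and Tal1 passed in 2 sets, and Col18a1, Ephb4, Notch1 and Nrp2 in 1.

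Nrp2, a co-receptor for VEGFC and semaphorins, stood at 101, 284 and 428 CPM in endothelium-like cells, the log2 ratio being 1.76 (1.45 to 2.06), 1.91 (1.63 to 2.19) and 3.57 (3.39 to 3.74). Cxcl12, the chemokine ligand of CXCR4, stood in set 1 at 11.4 CPM against 154, with a log2 ratio of −3.75 (−4.71 to −2.95), while in sets 2 and 3 the ratio was 0.03 (−0.36 to 0.39) and −0.20 (−0.49 to 0.08). Thbs1, a secreted inhibitor of vessel growth, was below the other cells in each set, the log2 ratio being −1.87 (−2.22 to −1.55), −1.30 (−1.56 to −1.06) and −1.20 (−1.36 to −1.05). Figf, which encodes the ligand VEGFD, lay mainly in fibroblast-like and smooth muscle-like cells, with 98, 7 and 42 UMIs in the first and 28, 15 and 34 in the second. Angptl2, an angiopoietin-like ligand, stood at 29.4 (25.7 to 33.4), 19.5 (14.8 to 25.3) and 17.0 (13.2 to 21.6) CPM in fibroblast-like cells and at 39.9 (25.3 to 59.8), 97.1 (62.8 to 143) and 65.7 (39.5 to 103) in glia-like cells. In endothelium-like cells it stood at 5.70 (2.09 to 12.4), 7.04 (1.45 to 20.6) and 2.41 (0.292 to 8.71), below the glia-like intervals in each set and below the fibroblast-like ones in sets 1 and 3, while in set 2 the latter overlap.

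**Figure D5:**
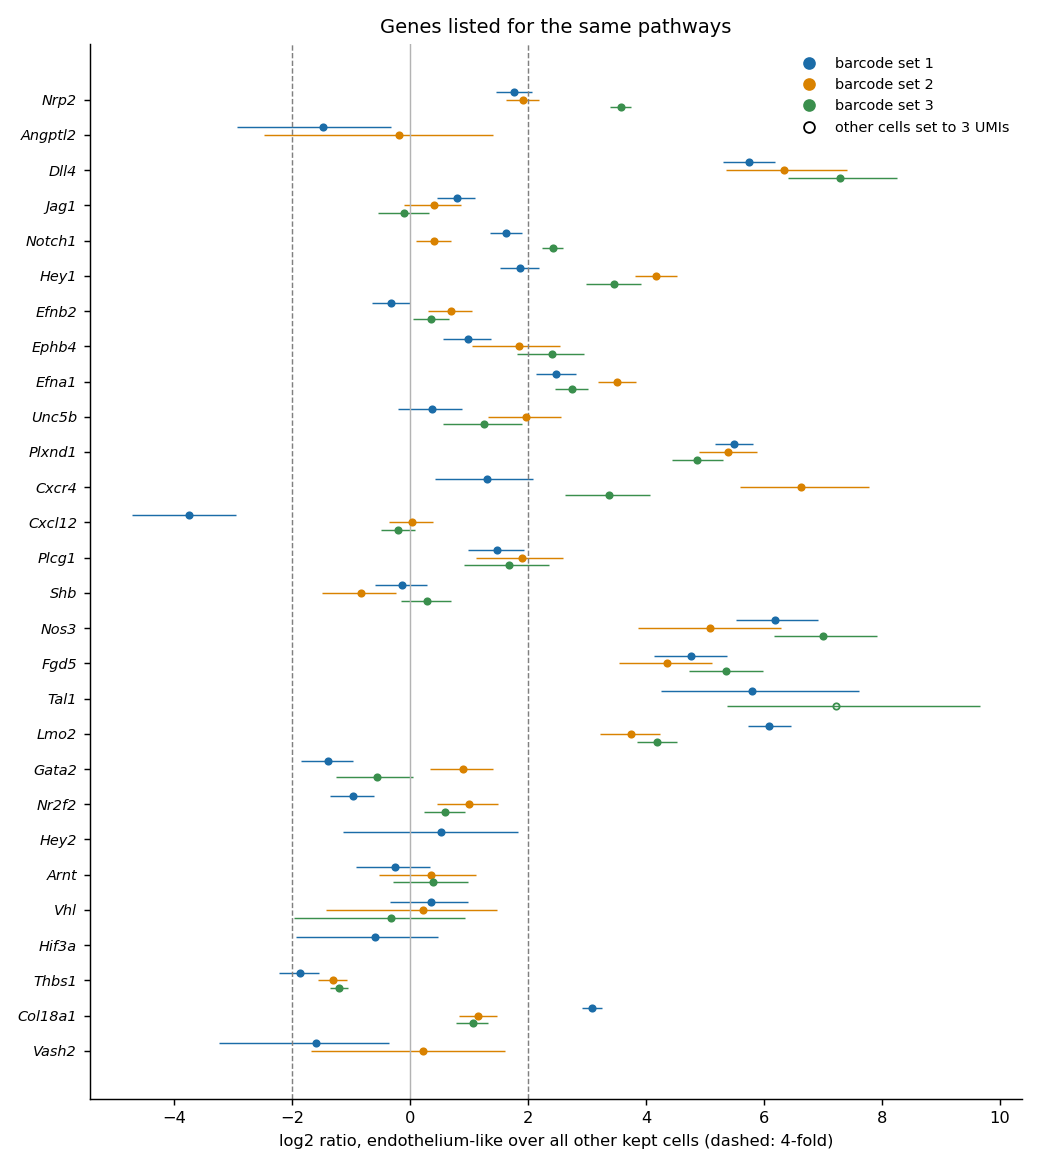
Log2 ratio of the rate in endothelium-like cells over that in all other kept cells, with exact 95% intervals, for the pathway genes with at least 10 UMIs in the set and at least 3 in endothelium-like cells (dashed lines, 4-fold; open circle, other cells set to 3 UMIs). Dll4, Nos3, Fgd5, Plxnd1, Lmo2 and Efna1 lie right of the 4-fold line in all 3 barcode sets, and Thbs1 lies left of 0 in all 3.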

How the data were processed

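Single cell RNA-seq was done on 1 library each of E18.5 UGS, P14 and P35 prostate. The labels name Cell Ranger 3.1.0 and mm10; per the study's methods transgene sequences were added, and cells were filtered for empty droplets, multiplets and mitochondrial RNA. The table deposited by the authors holds natural log values, ln(1 + 10000 × UMIs / total UMIs of the cell), for 9784 gene rows and 14573 cells. UMIs and totals were recovered from them (100% whole within 0.05). One incomplete row and 2 rows sharing a name were left out, leaving 9781, which hold 52.7%, 50.4% and 49.4% of the UMIs. Totals were 20511786, 15929745 and 27444044 UMIs, and 97 cells of set 3 with under 200 genes were dropped. The steps were tested on simulated data.

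Cells were integrated and clustered in Seurat 5.3.0 (R 4.3.3; 20 dimensions, 2000 features, cell cycle regressed, 30 components, resolution 0.5) into 14 clusters. A cluster was named for the list with most markers (at least 3) that were in 10% of its cells and at 2-fold the median cluster, if this list led the next by 2 markers or held 3 of the 10 leading genes, and no list held more of those 10; this scoring was set after the clusters were seen. Doublets were not removed, since Scrublet called 3, 0 and 0 cells and did not work here. Sums of 0 to 2 UMIs were set to 3 in ratios; folds on 1 or 2 UMIs are as counted. No test was run. Intervals of rates are Poisson, of shares Clopper-Pearson, and of ratios from the binomial split, all at 95% (Python 3.11.15, scipy 1.17.1). Named genes are the 8 members, the fixed marker and pathway lists, and for each member the 3 most alike genes with at least 50 UMIs; leading genes of clusters come from the clustering. Members and lists were chosen with earlier results of these data known. Alternatives were another resolution, no integration, members among the features, at least 1000 genes per cell, the 5% highest doublet scores removed, cells classed singly, thinning to 900 UMIs and means over cells; 3 more were added after seeing the data.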

Additional observations from a re-analysis of the deposited data

How the results depend on the processing

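No paired analysis was possible because there was 1 library per group. Over 11 alternatives, 59 recomputed counts of genes stayed within 1.5 times the reported count and 1 did not. This was the count of members at least 4-fold higher in set 1, which was 2 after thinning to 900 UMIs per cell, where 3 members were left with at least 10 UMIs. That count ranged from 5 to 7 in set 2 and from 7 to 8 in set 3. Of the recomputed ratios, 797 moved by less than their interval, 58 moved by more and 2 changed sign. Both were Vegfc in endothelium-like over fibroblast-like cells of set 1, at −0.106 as a mean over cells and −0.733 without the cell richest in Vegfc (an alternative chosen after seeing the data). The log2 ratio of Vegfc to all other kept cells in set 1 ranged from 0.13, without that cell, to 1.65. Among the receptors, the log2 ratio to all other kept cells ranged in sets 1, 2 and 3 from 5.87 to 6.98, 6.37 to 7.89 and 5.72 to 7.69 for Kdr, from 3.34 to 4.20, 4.63 to 5.02 and 7.14 to 8.17 for Flt1, from 4.29 to 6.05, 5.62 to 6.81 and 4.81 to 8.35 for Tek, from 5.70 to 10.9, 6.64 to 9.83 and 7.47 to 8.38 for Tie1, and from 5.29 to 9.46, 6.54 to 8.78 and 7.77 to 8.79 for Aplnr. For Apln it ranged from 4.70 to 5.50, 5.21 to 6.43 and 4.38 to 6.84. Some of these values are lower bounds of the counted ratio alone, with other cells set to 3 UMIs. The cause of these moves was not tested. Of 761 alternative values of the 80 ratios whose interval lay above 0, 759 stayed above 0. The pericyte-like class could not be formed without integration or with at least 1000 genes per cell, nor could the smooth muscle-like class with at least 1000 genes. Without integration the fibroblast-like class of set 1 held 5 cells, against 407, the smooth muscle-like class 3 and the epithelium-like class 0, while 483 and 146 cells of set 1 fell in 2 unnamed clusters. In set 2 the smooth muscle-like class then held 94 cells, against 1615, while 1680 cells of set 2 fell in an unnamed cluster. The set 1 results on the fibroblast-like class and its clusters therefore have no counterpart of like size without integration. Nor do the set 2 results on the smooth muscle-like class. Counts per gene limit Apln, Aplnr and Vegfc in sets 2 and 3, and the set 2 pericyte-like class.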
